A study of Oryctolagus cuniculus with 24 samples.

Results

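The contrast described here asked whether the response of rabbit peripheral blood mononuclear cells (PBMCs) to lipopolysaccharide (LPS) differed between an early and a late time. It is the LPS-minus-mock difference at 24 h (T24) minus the LPS-minus-mock difference at 4 h (T4), called the interaction below. Its members are 16 arrays of the 24 in the series, taken by their labels and not by any measured value. The other 8 arrays hold cells given PMA-Ionomycin. PBMCs were isolated on a density gradient from the blood of 4 female adults of the New Zealand White breed, called rabbits 1, 2, 4 and 5 here. Each rabbit gave 1 mock-stimulated culture and 1 culture with 1 µg/mL of LPS at 4 h, and the same pair at 24 h, so each of the 4 groups (mock T4, LPS T4, mock T24 and LPS T24) has 4 arrays. The mock cultures of T24 were kept as long as the LPS cultures they are compared with.

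LPS is a cell wall component of Gram-negative bacteria. CD14 and TLR4 on monocytes and macrophages bind it, and the adaptor MYD88 passes the signal on to NF-kappaB and the MAP kinases, which switch on cytokine genes. The first products, such as TNF, are made quickly and shut down by feedback, whereas later products include IL10, acute phase proteins and regulators of coagulation. Blood monocytes kept in culture also mature towards macrophages without any stimulus, so a late LPS effect is measured against mock cells that have themselves moved on.

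Levels are log2 median spot signals minus the median of the array, so a level of 0 is the median probe. A difference of 1 is 2-fold, and levels of different genes cannot be ranked against each other because each probe has its own brightness. Between 51.4% and 62.3% of spots on the 16 arrays were well above background, and 1 spot was saturated. Markers of monocytes (CD14, TLR4, SPI1), B cells and T cells were measured in every group, as the label PBMC implies, and platelet and neutrophil markers were present too. In such mixed samples fewer cells of a type and less RNA per cell cannot be told apart.

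Of 28792 genes tested with limma, 2082 had an interaction with an adjusted p under 0.05, which is 7.23% of the genes. Genes with a symbol, from which all lists below are drawn, were called more often, at 1141 of 9532 or 12%. In 1881 of the 2082 called genes (6.53% of the genes tested) the LPS-minus-mock difference was more positive at T24 than at T4, and in 201 (0.698%) it was more negative. The sign was the same in all 4 rabbits for 2067 of the called genes and in 3 of 4 for the other 15. The positive interactions ran up to 5.48 and the negative ones down to -3.37 on the log2 scale. The count depended on which animal was left out. Leaving out rabbit 1 gave 2280 calls and leaving out rabbit 5 gave 466. The fit with rabbits 1, 2 and 5 alone called 30 genes. With rabbits 1, 4 and 5 it called 0, although limma gave 3858 genes an unadjusted p under 0.05. Without the rabbit block, 218 genes were called, and all of them were among the 2082. The split of directions also moved with the scaling of the arrays: 90.4% of calls were positive after median centring, 73.7% after quantile normalization (1007 positive, 360 negative), 72.2% after normexp and quantile normalization (819 and 315) and 65.3% with processed signals scaled to the 75th percentile (47 and 25). The median interaction over all genes was -0.11 after median centring and -0.30 with the processed signals. A core of 65 genes, 46 positive and 19 negative, was called under all 4 scalings.

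**Figure D1:**
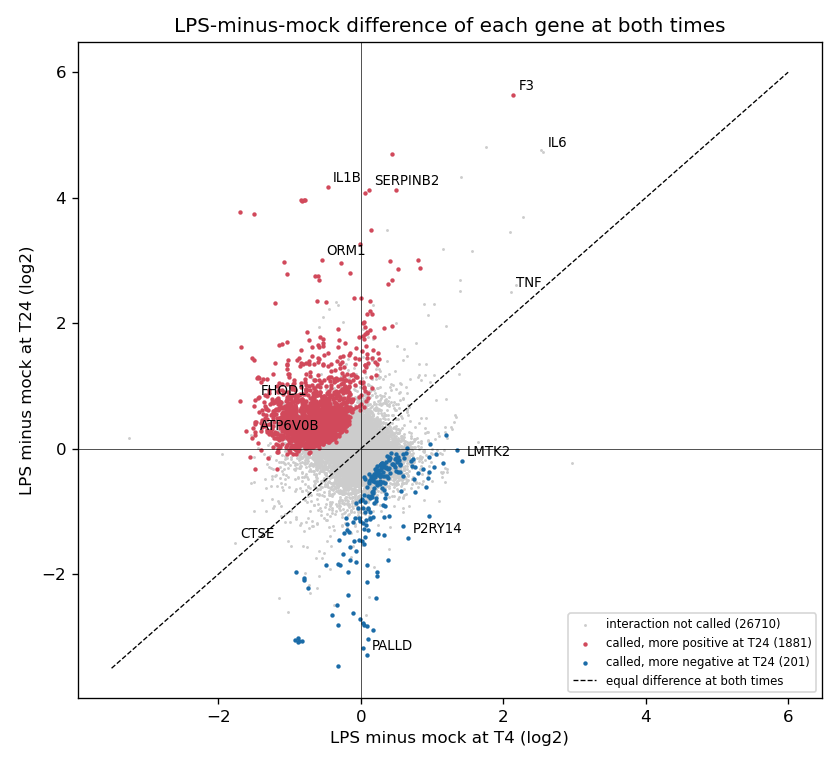
Each point is a gene, with its mean LPS-minus-mock difference (log2) at T4 on the horizontal axis and at T24 on the vertical axis. Red points are the 1881 genes called with a more positive difference at T24, blue points the 201 genes called with a more negative one, and grey points were not called; the dashed line marks equal differences. Most red points lie to the left of 0 and above the line, most blue points lie below 0 on the vertical axis, TNF and CTSE lie near the line, and IL6, at 2.55 and 4.73, lies above it and was not called.

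The calls fell into a few shapes when each time was tested on its own. At T4, LPS minus mock was called lower in 1458 genes (5.06%) and higher in 92 (0.32%). Every call at T4 given below shares a limit. Limma called 0 genes at T4 without rabbit 2 (3916 at an unadjusted p under 0.05), without rabbit 4 (3104) or with processed signals (5512). At T24 it was called lower in 269 (0.934%) and higher in 436 (1.51%). Among the 1881 positive interactions, 989 genes were lower with LPS at T4 only, 307 were higher at T24 only, 43 were lower at T4 and higher at T24, 1 was higher at both times, and 541 were called at neither time. Among the 201 negative ones, 102 were lower at T24 only, 34 were higher at T4 only, 1 turned from higher to lower, 1 was lower at both times, and 63 were called at neither. The size at T4 differed between animals. The 989 genes lower at T4 only had a median difference there of -0.18, -0.82, -1.40 and -0.84 in rabbits 1, 2, 4 and 5.

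**Figure D2:**
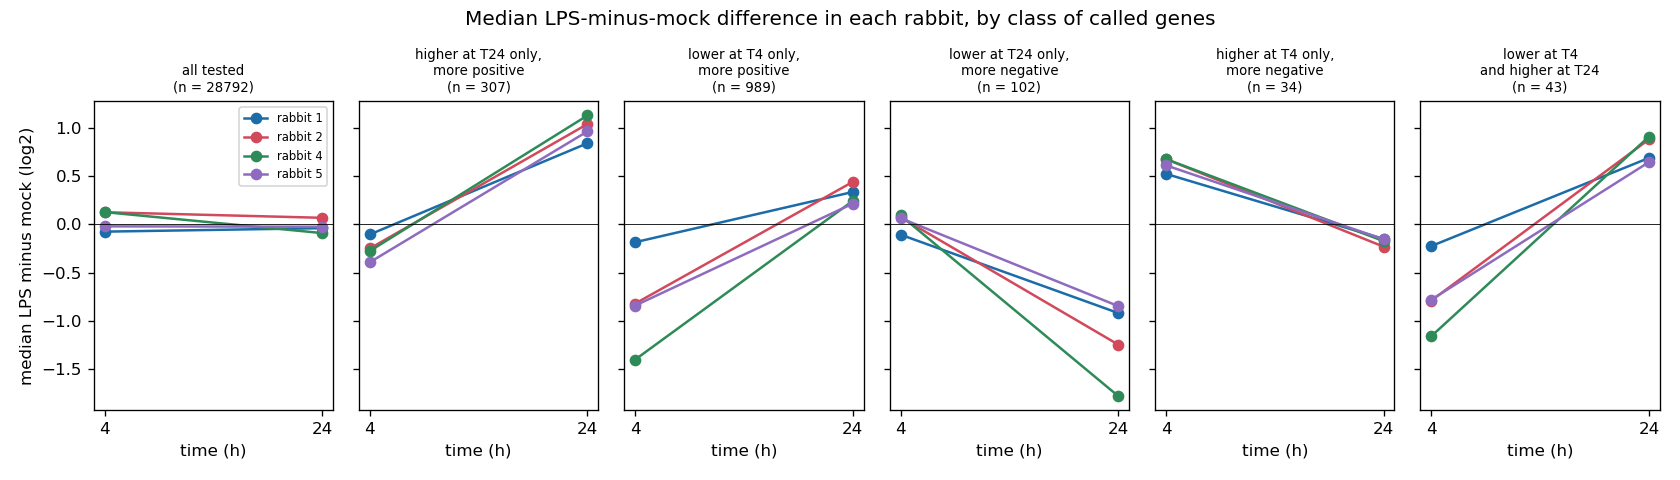
Median LPS-minus-mock difference (log2, vertical axis) at 4 and 24 h in each rabbit, for all 28792 genes and for 5 classes of called genes, with the number of genes above each panel. The classes were formed from these same values, so the lines describe them and test nothing; rabbit 4 is lowest at T4 among the 989 genes lower at T4 only (-1.40) and rabbit 1 is nearest to 0 (-0.18).

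The largest positive interactions with a gene symbol included inflammatory mediators whose mock level was high at T4 and lower at T24. IL1B, which encodes the fever-inducing cytokine interleukin 1 beta, had an interaction of 4.63 (SE 0.98, adjusted p = 0.0151). Its levels in rabbits 1, 2, 4 and 5 were 9.12, 9.54, 8.81 and 9.52 in mock T4 and 9.63, 8.82, 8.15 and 8.54 in LPS T4. At T24 they were 8.16, 6.82, 4.26 and 2.54 in mock cells and 10.18, 9.41, 9.33 and 9.51 in LPS cells. The groups overlapped at T4 and were apart at T24, where the mock cultures ranged widely and the LPS cultures did not, and LPS was 17.9-fold above mock (adjusted p = 0.0059). The difference of differences was 1.503, 3.32, 5.73 and 7.95 in the 4 rabbits, and the call was lost with processed signals (adjusted p = 0.0656) and without rabbit 4 (0.11). IL1B was measured by the following probe alone, shown because the largest called cytokine rests on it.
IL1B: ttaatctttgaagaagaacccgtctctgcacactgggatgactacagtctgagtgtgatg

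SERPINB2 showed the same shape. It encodes plasminogen activator inhibitor 2, which blocks urokinase, and its probes lie at chr9:104107284-104107412 of the rabbit build oryCun2. Mock T4 levels were 7.31, 7.15, 6.26 and 6.86, and LPS T4 levels were 7.53, 7.08, 7.32 and 6.09. Mock T24 levels were 2.71, 1.24, 1.45 and 2.98, against 7.10, 5.76, 6.09 and 5.92 with LPS. Mock and LPS overlapped at T4, and at T24 every LPS culture was above every mock culture. The interaction was 4.01 (SE 0.50, adjusted p = 0.0032) and ran from 3.57 to 4.60 in the 4 rabbits. It was called under all 4 scalings and without rabbit 4 (adjusted p = 0.0349), but not without rabbit 2 (adjusted p = 0.0933). Within the 3 slides, where the groups come from different rabbits and are not paired, it was 4.67, 2.59 and 5.19. The first of its 2 probes is shown because the call held under all 4 scalings.
SERPINB2: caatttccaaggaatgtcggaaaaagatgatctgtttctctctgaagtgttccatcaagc

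IL36G and IL37 of the IL-1 family and a growth factor had a similar shape, and IL1A of the same family had no called interaction (1.59, adjusted p = 0.34, from -0.17 to 5.83 in the rabbits). IL36G, an IL-1 family cytokine, had group means of 2.99 in mock T4, 3.05 in LPS T4, 0.25 in mock T24 and 4.33 in LPS T24 (interaction 4.02, adjusted p = 0.0086). In IL36G, IL37, HBEGF and F3 alike, 2 of 4 mock T24 arrays were well above background. IL37, an IL-1 family member known to damp inflammation, had means of 1.84 in LPS T4, -0.01 in mock T24 and 2.79 in LPS T24 (interaction 2.95, adjusted p = 0.0048). HBEGF, a ligand of the EGF receptor, stood at 1.01, 1.00, -0.28 and 2.97 (interaction 3.27, SE 0.38, adjusted p = 0.0021). In these 3 genes LPS minus mock was 0.06, -0.16 and -0.01 at T4, and at T24 the LPS mean was above and the mock mean below the means of T4. F3, tissue factor, which starts coagulation, was the 1 gene with a called interaction that was also called higher at both times: LPS minus mock was 2.14 at T4 (adjusted p = 0.0482) and 5.63 at T24 (adjusted p = 0.0002). Its interaction of 3.49 (adjusted p = 0.0224) was carried unequally, at 2.67, 1.76, 3.24 and 6.30 in rabbits 1, 2, 4 and 5. OSM, the cytokine oncostatin M, also had a positive interaction (1.27, adjusted p = 0.0358). None of these genes was called without rabbit 2, and without rabbit 4 HBEGF was called (adjusted p = 0.0420) while IL36G (0.0731), IL37 (0.0592) and F3 (0.0757) were not. With processed signals none of these 4 was called, and F3 was also lost without rabbit 5 (adjusted p = 0.10) and after normexp and quantile normalization (0.0530).

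**Figure D3:**
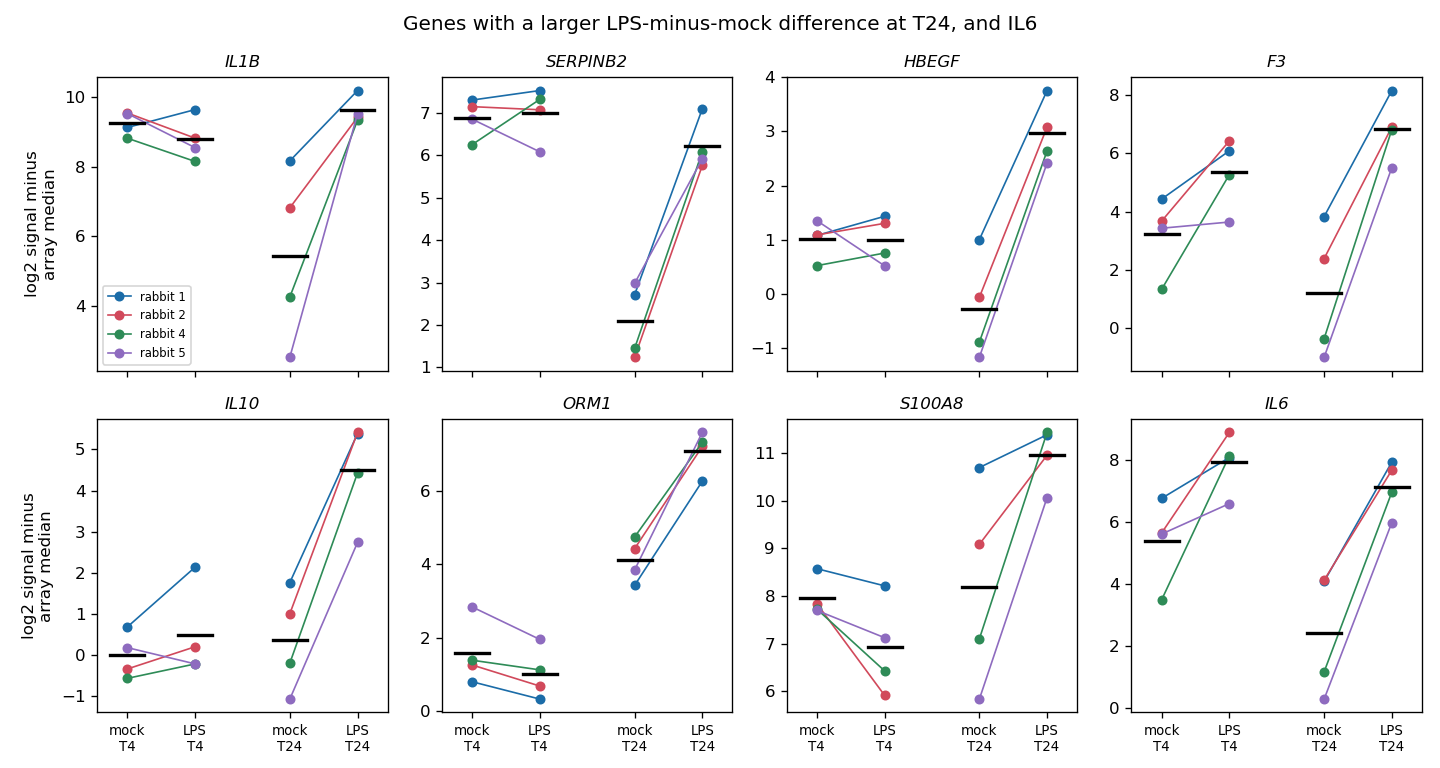
Levels (log2 signal minus the array median, vertical axis) of 8 genes in mock and LPS cultures at T4 and T24. Each point is an array, lines join the mock and LPS cultures of a rabbit, and black bars are group means. At T24 the LPS culture of every rabbit lies above its mock culture in all 8 genes, the mock mean of IL1B is 5.45 against 9.25 at T4, and IL6, the last panel, was not called and has LPS above mock in every rabbit at T4 too.

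IL10 and ORM1 were low at T4 in both mock and LPS cultures and high in LPS cultures at T24. IL10 encodes the main anti-inflammatory cytokine of myeloid cells. Its levels were 0.68, -0.35, -0.58 and 0.17 in mock T4 and 2.13, 0.19, -0.22 and -0.22 in LPS T4, where 3 of 4 arrays of each group were well above background. At T24 they were 1.76, 1.00, -0.20 and -1.08 in mock cells and 5.39, 5.42, 4.43 and 2.74 with LPS. The groups overlapped at T4 and did not at T24, and the interaction was 3.63 (SE 0.57, adjusted p = 0.0078). The call was lost with processed signals (adjusted p = 0.0737), without rabbit 4 (0.0743) and without the rabbit block (0.0728). ORM1, the acute phase protein orosomucoid, was called under all 4 scalings and without rabbit 4 (adjusted p = 0.0339). Its levels were 0.79, 1.25, 1.38 and 2.84 in mock T4, 0.32, 0.67, 1.12 and 1.95 in LPS T4, 3.43, 4.43, 4.75 and 3.85 in mock T24 and 6.28, 7.23, 7.34 and 7.61 in LPS T24. LPS was below mock in all 4 rabbits at T4, by a mean of 0.55 that was not called, and above every mock culture at T24 (adjusted p = 0.0001), where the mock level was itself higher than at T4. Its interaction was 3.55 (SE 0.40, adjusted p = 0.0021), and its probe is shown because the call held under so many settings.
ORM1: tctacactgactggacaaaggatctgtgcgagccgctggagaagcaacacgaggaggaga

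STEAP1, a metalloreductase family protein, LCN2, which binds bacterial siderophores, and FPR1, the receptor of formylated bacterial peptides, completed the 12 largest positive interactions with a symbol, together with S100A8 and MRP-8, a second entry of it on the array. STEAP1 had an interaction of 3.399 (adjusted p = 0.0084) and was 2.76 higher with LPS at T24. Its call was lost with processed signals (adjusted p = 0.0612), without rabbit 4 (0.0743) and without rabbit 2 (0.14). LCN2 had an interaction of 3.24 (SE 0.85, adjusted p = 0.0361) with 2 of 4 LPS T4 arrays well above background. It was uneven, at 5.10, 4.99, 2.58 and 0.30 in rabbits 1, 2, 4 and 5, and was called under none of the other 3 scalings and not without rabbit 1 (adjusted p = 0.0863), rabbit 2 or rabbit 4. FPR1 went from a difference of -1.21 at T4, which was not called, to 2.33 at T24 (adjusted p = 0.0357), an interaction of 3.53. In rabbits 1, 2, 4 and 5 that interaction was 0.86, 2.77, 5.22 and 5.30. It was not called with processed signals (adjusted p = 0.0647), without rabbit 4 (0.12) or without rabbit 2 (0.15).

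The calgranulins S100A8 and S100A9, calcium-binding proteins of neutrophils and monocytes, were among the largest values and need their probes to be read. S100A8 levels were 8.57, 7.84, 7.72 and 7.70 in mock T4, 8.21, 5.91, 6.43 and 7.12 in LPS T4, 9.09, 7.10 and 5.83 in mock T24 of rabbits 2, 4 and 5 with rabbit 1 higher still, and 11.39, 10.96, 11.44 and 10.07 in LPS T24. LPS was below mock in every rabbit at T4 and above it in every rabbit at T24, and the mock T24 cultures were far apart from each other. The interaction was 3.83 (SE 0.84, adjusted p = 0.0174). The array lists MRP-8, another name of S100A8, as a gene of its own, with an interaction of 4.05, but its 3 probes share 57 to 59 bases with an S100A8 probe, so they are not separate evidence. The capitals mark the 57 shared bases at chr13:39004760-39004960 (S100A8) and chr13:39004906-39004964 (MRP-8) of oryCun2.
S100A8: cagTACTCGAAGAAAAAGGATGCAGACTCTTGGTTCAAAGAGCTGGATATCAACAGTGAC
MRP-8: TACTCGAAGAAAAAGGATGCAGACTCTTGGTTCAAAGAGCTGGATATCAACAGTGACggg

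For S100A9 the mean of 2 probes, 2.96 (adjusted p = 0.0384), hid a large disagreement. One probe gave 5.19 (adjusted p = 0.0134 among single probes) at a mean level of 8.28 and the other 0.73 (adjusted p = 0.44) at a mean level of 3.97. The other probe is the reverse complement of the one over 56 bases, in capitals, so the pair read opposite strands. The array annotation puts them at chr13:39032371-39033712 on the minus strand and chr13:39032375-39033716 on the plus strand.
S100A9 probe at 5.19: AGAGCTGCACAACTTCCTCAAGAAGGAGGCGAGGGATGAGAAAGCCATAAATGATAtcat
S100A9 probe at 0.73: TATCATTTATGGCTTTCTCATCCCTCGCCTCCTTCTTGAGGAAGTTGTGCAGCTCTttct
LOC100008703, described in the files as calgranulin C, has no symbol and so was outside the ranking of the 12 largest. It was looked up after its values were seen, and had an interaction of 4.76 (SE 0.98, adjusted p = 0.0139). S100A8 and S100A9 stand on the list of neutrophil markers, of which 7 were measured. MPO, the granule enzyme myeloperoxidase, had a negative interaction (-1.56, adjusted p = 0.0120), CAMP, LTF, CXCR2 and MMP8 were not called, and MMP8 was not well above background on any array. The summed level of the 7 ranged over 8.08 to 8.84 in mock T4, 6.54 to 8.57 in LPS T4, 6.56 to 10.86 in mock T24 and 10.29 to 11.60 in LPS T24. That sum is of unlogged signals, so it follows mostly S100A8 and S100A9 (means of 10.97 and 7.85 in LPS T24). Of the other members, LTF was higher with LPS at T24 (0.40), and MPO (-1.63), CAMP (-1.93), CXCR2 (-0.29) and MMP8 (-0.09) were lower. The part of neutrophils in these values was not tested. Without rabbit 4 neither S100A8 (adjusted p = 0.13) nor S100A9 (0.24) was called, and without rabbit 2 no gene was. S100A9 was called under none of the other 3 scalings, and S100A8 was lost with processed signals (adjusted p = 0.0669) and without the rabbit block (0.0932).

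In 11 of the 12 largest negative interactions LPS was called lower than mock at T24, and several of these genes were near or below background at T4. PALLD, the actin-bundling protein palladin, was well above background on none of the 8 arrays at T4, so only T24 was measured in full. There its levels were 1.86, 3.02, 4.33 and 4.33 in mock cells and -0.23, -0.11, -0.12 and 0.87 with LPS, without overlap. The interaction was -3.37 (SE 0.51, adjusted p = 0.0069), and its 5 probes gave -3.52 to -3.25. MLANA, the melanosome protein melan-A, stood at 3.01, 3.93, 4.85 and 4.50 in mock T24 and at 1.32, 1.40, 0.91 and 0.50 in LPS T24. At T4 its means were 0.24 and 0.34, and the interaction was -3.14 (SE 0.45, adjusted p = 0.0054). Both were called under all 4 scalings, and neither without rabbit 4 (adjusted p = 0.0615 and 0.0578) or rabbit 2.

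ATP6V0D2, the d2 subunit of the proton pump that osteoclasts and fused macrophages use, had mock levels of 5.20, 5.92, 6.80 and 5.70 at T24, where LPS levels were 3.30, 2.86, 2.55 and 3.64. At T4 both means lay near the background, at -0.56 and -0.51, with 1 and 2 of 4 arrays well above it. LPS cells thus held more at T24 than at T4 but less than mock cells, and the interaction was -2.86 (SE 0.46, adjusted p = 0.0083). DCSTAMP, needed for the fusion of macrophages and osteoclast precursors, followed with -1.70 (adjusted p = 0.0360), well above background on none of 4 mock T4 arrays and 1 of 4 LPS T4 arrays. CLEC7A, the beta-glucan receptor dectin-1, had means of 0.07 and -0.34 at T4 and of 2.52 and -0.14 at T24 (interaction -2.25, adjusted p = 0.0110). CTBS and GUSB, lysosomal glycosidases, had interactions of -2.15 and -1.48. GUSB mock levels at T24 were 5.999, 6.45, 7.49 and 6.99 against 4.51, 4.53, 3.89 and 5.13 with LPS, without overlap. ASPA, an aspartoacylase (-2.59), DEFB1, an antimicrobial beta-defensin (-2.49), and ALCAM, an adhesion molecule (-1.60), were also among the 12 largest. In DEFB1 rabbits 4 and 5 gave -3.59 and -4.42 and rabbits 1 and 2 gave -0.68 and -1.26, whereas GUSB in rabbits 1, 2, 4 and 5 gave -1.06, -1.19, -2.69 and -0.97. ATP6V0D2, DCSTAMP, CLEC7A, CTBS, GUSB, ASPA, DEFB1 and ALCAM all lost the call with processed signals and without rabbit 2 or rabbit 4. DCSTAMP lost it under the other 2 scalings too (adjusted p = 0.0636 after quantile normalization and 0.0595 after normexp), ASPA (0.0592) and DEFB1 (0.0543) after normexp, and all but ATP6V0D2 and ALCAM without rabbit 5.

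AGRP and P2RY14 had the smallest adjusted p among the 12 largest negative interactions and were called under all 4 scalings and without rabbit 4 (adjusted p = 0.0349 and 0.0441). AGRP, named for its similarity to the agouti protein, had levels of 0.24, 0.57, 0.14 and 0.23 in mock T4 and 0.63, 0.59, 0.35 and 0.51 in LPS T4. At T24 they were 3.11, 3.11, 2.49 and 1.90 in mock cells and 0.92, 0.75, 0.66 and 0.39 with LPS, so that the LPS cultures stayed near the levels of T4. The interaction was -2.20 (SE 0.24, adjusted p = 0.0021). P2RY14, the receptor of UDP-glucose, was the single gene called higher with LPS at T4 and lower at T24. Its levels were 1.28, 0.78, 0.76 and 0.35 in mock T4 and 1.92, 1.53, 1.83 and 0.55 in LPS T4, then 2.55, 2.54 and 2.23 in mock T24 of rabbits 1, 2 and 5 with rabbit 4 higher still, and 1.43, 1.07, 1.24 and 0.98 in LPS T24. LPS lay above mock in each rabbit at T4, with overlap between the groups, and below every mock culture at T24. The interaction was -2.09 (SE 0.25, adjusted p = 0.0022). Their probes are shown, AGRP at chr5:23068376-23068435 and P2RY14 at chr14:45135935-45135994, both on the minus strand.
AGRP: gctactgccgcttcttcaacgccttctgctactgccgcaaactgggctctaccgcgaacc
P2RY14: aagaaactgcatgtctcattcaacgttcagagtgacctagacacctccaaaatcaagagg

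**Figure D4:**
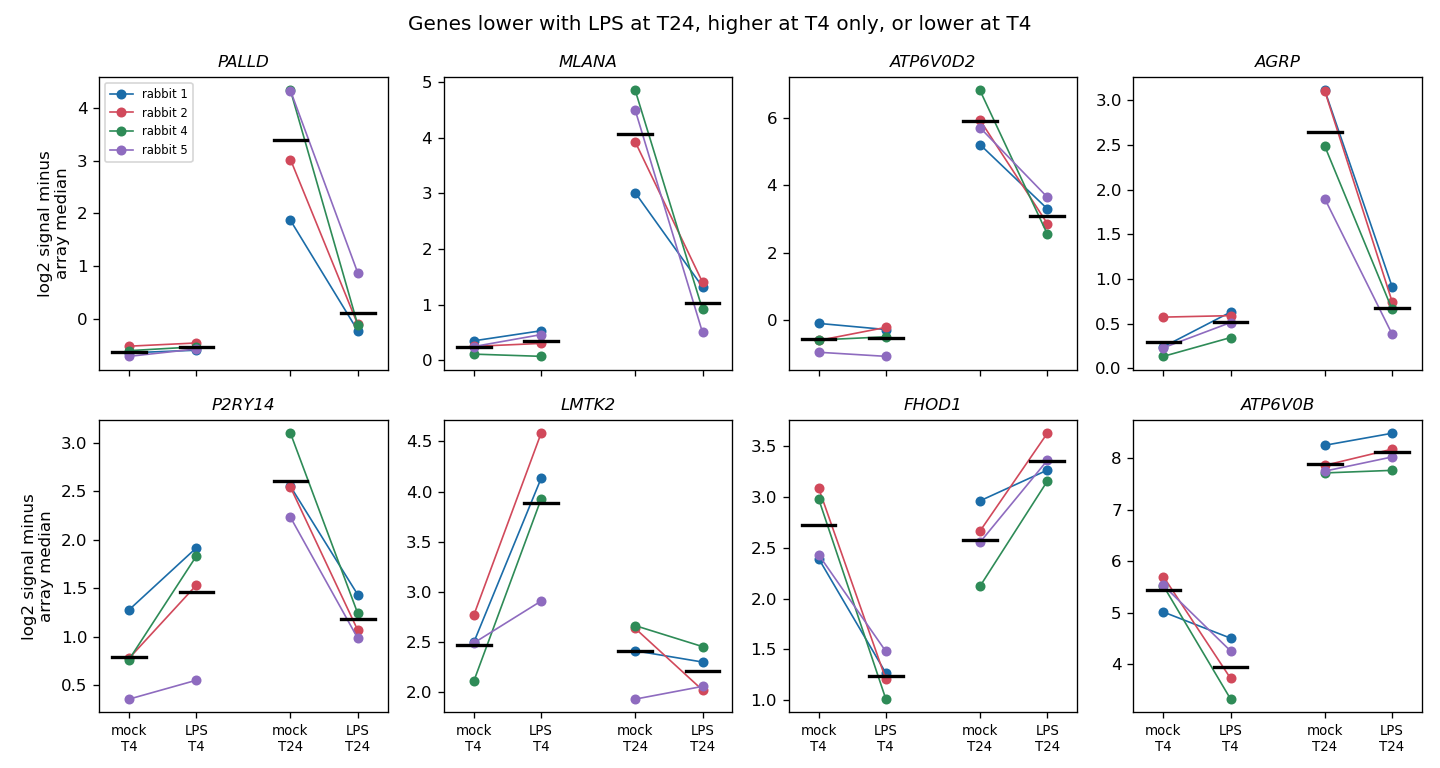
Levels (log2 signal minus the array median, vertical axis) of 8 genes in mock and LPS cultures at T4 and T24, with a point for each array, lines joining the cultures of a rabbit and black bars for group means. PALLD, MLANA, ATP6V0D2, AGRP and P2RY14 have a high mock level at T24 that the LPS cultures do not reach; LMTK2 is higher with LPS at T4 only, and FHOD1 and ATP6V0B are lower with LPS at T4.

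This course was general among the 102 genes that were lower with LPS at T24 only. In 101 of them the mock mean was higher at T24 than at T4, by a median of 1.32 over the class, while the LPS mean moved by a median of 0.06. The mock T24 arrays enter both the class and this value, so the count is a description. Of the 307 genes higher with LPS at T24 only, the mock mean was lower at T24 than at T4 in 172 and higher in 135.

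A smaller group was called higher with LPS at T4 and not at T24. LMTK2, a membrane kinase of endosomes, was 1.42 higher with LPS at T4 (adjusted p = 0.0190) and 0.20 lower at T24, which was not called. Its LPS T4 levels of 4.13, 4.58, 3.92 and 2.91 were all above its mock T4 levels of 2.50, 2.77, 2.11 and 2.49, and at T24 the groups overlapped. The interaction was -1.62 (SE 0.33, adjusted p = 0.0126), with -0.29 in rabbit 5 against -1.75 or below in the others. ZBTB10, a zinc finger repressor, had -1.42 (adjusted p = 0.0158) and EVA1B had -1.15 (adjusted p = 0.0455), which was lost under each of the other 3 scalings and without any 1 of the rabbits. LMTK2 lost the call with processed signals (adjusted p = 0.0576) and without rabbit 4 (0.0818). IL12B, the p40 subunit shared by IL-12 and IL-23, was at least 1.93-fold higher with LPS at T4 (adjusted p = 0.0190), where 3 of 4 LPS arrays and no mock array were well above background. Its interaction had an adjusted p of 0.0215, and at T24 1 array of 8 was well above background. MYC, a growth-promoting transcription factor, was not of this group: it differed by 0.35 at T4, not called, and was 0.92 lower with LPS at T24 (interaction -1.26, adjusted p = 0.0152). Over all 34 genes higher with LPS at T4 only, 25 were still called without the LPS T4 array of rabbit 4 and 1 without rabbit 4.

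Several of the best known LPS targets did not have a called interaction, and in TNF, IL6 and IL23A LPS lay above mock at both times. TNF was 2.10 higher at T4 (adjusted p = 0.0226) and 2.50 higher at T24 (adjusted p = 0.0117), and its interaction was 0.40 (SE 0.66, adjusted p = 0.75) with both signs among the rabbits, from -1.30 to 3.17. At T4 the difference ran from 0.55 in rabbit 5 to 3.85 in rabbit 4 for TNF, and from 0.98 to 4.65 for IL6 in the same animals. The study listed neither gene as differentially expressed with LPS at T4, by array or by qRT-PCR. The T4 calls of both are not stable, since none is left without rabbit 2 or without rabbit 4. Its mean level was 10.49 in LPS T4 and 7.65 in LPS T24, and the mock means were 8.39 and 5.15, so the level was lower at T24 in both. IL6 was 2.55 higher at T4 (adjusted p = 0.0216) and 4.73 higher at T24 (adjusted p = 0.0005), with an interaction of 2.18 (SE 0.79, adjusted p = 0.13). IL23A, the p19 subunit of IL-23, was 2.28 and 3.70 higher, with an interaction of 1.43 (SE 0.75, adjusted p = 0.31). At the other end, CTSE, the aspartic protease cathepsin E, was 1.77 lower at T4 and 1.504 lower at T24 with an interaction of 0.26 (SE 0.46, adjusted p = 0.77), and ACP5 and IRF5 were also called lower at both times and not in the interaction. A value that missed the threshold does not show equal responses, and the SE of IL6 leaves room for a large difference.

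The list of inflammatory cytokines therefore held both behaviours. Of 23 tested, 5 (IL1B, IL36G, IL37, IL10 and OSM) had a positive and 2 (IL12B and CSF1) a negative interaction, 30.4% against 7.23% of all genes and 12% of those with a symbol, and the median interaction was 0.40 against -0.11. After quantile normalization 5 of the list were called, and 0 with processed signals. CSF1 was well above background on all 4 arrays of mock T24 only. No chemokine of 17 was called, and limma gave 5 of them an unadjusted p under 0.05. CCL4 and CXCL8, which draw in lymphocytes and neutrophils, had interactions of 2.03 (SE 1.17) and 1.20 (SE 0.90). Rabbit 5 gave 6.005 and 5.13, and without it the values were 0.70 and -0.12. CCL2, which recruits monocytes, had -0.54 at T4 and 2.10 at T24, and its interaction of 2.63 missed the threshold (adjusted p = 0.0852). Of 10 genes of coagulation and fibrinolysis, 4 (40%) had a positive interaction: SERPINB2, F3, THBS1 (thrombospondin 1, 1.88) and ANXA2 (annexin A2, 2.25). PLA2G4A, which frees arachidonic acid for prostaglandin synthesis, was the 1 of 8 genes of that list called (1.65, adjusted p = 0.0043), and PTGS2, the inducible cyclooxygenase, was not (1.41, adjusted p = 0.13). Its share of 12.5% is close to the 12% of genes with a symbol. Among 14 antimicrobial and acute phase proteins, S100A8, S100A9 and LCN2 were positive and DEFB1 negative (28.6% called). ORM1 is not on that list.

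The receptors and adaptors that sense LPS and cytokines included genes that were lower with LPS at T4 only. CD14 levels were 7.14, 7.40, 8.06 and 6.92 in mock T4 and 6.28, 5.22, 6.005 and 5.81 in LPS T4, without overlap. At T24 they were 9.20, 8.57, 9.28 and 7.93 against 9.14, 8.57, 8.90 and 7.88, where mock and LPS nearly coincided. LPS minus mock was -1.55 at T4 (adjusted p = 0.0190) and -0.13 at T24, and the interaction was 1.42 (SE 0.32, adjusted p = 0.0175). TLR4 had -1.13 at T4 (adjusted p = 0.0193) and 0.37 at T24 (interaction 1.501, adjusted p = 0.0141), and MYD88 had -1.19 and 0.07 (interaction 1.26, adjusted p = 0.0360). With TAB1 and IRAK3, an inhibitor of the pathway that was 0.95 higher at T24 (adjusted p = 0.0056), 5 of 17 genes of TLR4 signalling were positive and none negative (29.4% called, against 7.23% of all genes and 12% of those with a symbol), 3 of them after quantile normalization and 0 with processed signals. Of 22 cytokine receptors, 6 (27.3%) were positive: IFNGR1 (2.45), IL2RG (2.17), IL10RB (1.28), IL12RB2 (0.99), IL17RA (0.91) and IL23R (0.70). IL12RB2 differed in shape, higher at T24 and near 0 at T4, and IL10RB (-0.51 at T4 and 0.77 at T24) was called at neither time. IL23R was well above background in LPS T24 alone, so its difference at T4 and the size of its interaction were not measured in full. It was at least 1.72-fold higher in LPS T24 than in mock T24 (adjusted p = 0.0066). Of 19 NF-kappaB subunits and feedback genes, NFKB1 (1.19), NFKB2 (0.80), BCL3 (0.89) and OTULIN (0.90) were positive (21.1%), and 1 of the list was called after quantile normalization and 0 with processed signals, against 6 and 1 of the receptors. In CD14, LPS T4 was below mock in all 4 rabbits, but its interaction was not called after quantile normalization (adjusted p = 0.0533), without rabbit 4 (0.10) or without rabbit 2 (0.20).

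Of 12 monocyte markers measured, CD14, TLR4 and SPI1 had a positive and CLEC7A a negative interaction (33.3%, against 7.23% of all genes and 12% of those with a symbol), and the other 8 were not called. With processed signals 0 of the 12 were called by limma. LPS was called lower in 5 of them at T4 (5.06% of all genes) and in 4 at T24 (0.934%). Their summed level was 7.51 to 8.64 in mock T4, 6.60 to 7.29 in LPS T4, 8.71 to 9.93 in mock T24 and 8.50 to 9.61 in LPS T24, and none of the 12 was below background in a whole group. That sum is of unlogged signals and follows mostly CD14, which had the highest signal of the 12 in each group. Of 13 T cell markers, LAT, CD247 and LCK were positive (23.1%), and 0 were called with processed signals. No marker of B cells (9 measured), NK cells (2), platelets (8) or erythrocytes (7) was called, with 3, 1, 2 and 3 of them at an unadjusted p under 0.05 by limma. The part of cell composition in the interaction was not tested.

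In the actin cytoskeleton and adhesion list 13 of 24 genes were positive and PALLD negative (58.3% called, against 7.23% of all genes and 12% of those with a symbol), with a median difference of -0.59 at T4 and 0.35 at T24. FHOD1, a formin that assembles actin filaments, was the clearest. Its levels were 2.39, 3.09, 2.98 and 2.43 in mock T4 and 1.27, 1.21, 1.01 and 1.48 in LPS T4, then 2.96, 2.66, 2.12 and 2.55 in mock T24 and 3.26, 3.62, 3.15 and 3.36 in LPS T24. LPS lay below every mock culture at T4 and above every mock culture at T24, and the interaction was 2.26 (SE 0.26, adjusted p = 0.0021). MYO1F, a motor of leukocyte migration (1.97), ZYX, zyxin of focal adhesions (1.98), TLN1, talin (1.60), and the leukocyte integrin chains ITGAX (2.10) and ITGB2 (1.68) also had positive interactions. FHOD1 was called under all 4 scalings and without rabbit 4 (adjusted p = 0.0349).

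Of 14 V-ATPase subunits, which acidify lysosomes, 7 were positive and ATP6V0D2 alone was negative (57.1% called, against 7.23% of all genes and 12% of those with a symbol). ATP6V0B levels were 5.01, 5.70, 5.52 and 5.53 in mock T4 and 4.51, 3.72, 3.32 and 4.26 in LPS T4, without overlap, and 8.25, 7.86, 7.72 and 7.75 against 8.48, 8.18, 7.76 and 8.02 at T24. The interaction was 1.71 (SE 0.31, adjusted p = 0.0091). ATP6AP1 (1.90) and ATP6V0D1 (1.92) followed. Lysosomal hydrolases and membrane proteins split, with 5 of 28 positive (CTSK, GLA, GRN, NEU1 and NPC2) and CTBS and GUSB negative (25% called), and their median difference was negative at T4 (-0.73) and at T24 (-0.32). Of 13 genes of glycolysis and the pentose phosphate pathway, 6 (46.2%) were positive, among them HK1 (1.35), PGAM1 (1.87), PFKP (1.44) and PKM (1.62). The list medians were -0.85 at T4 and 0.28 at T24, and all 13 interactions were above 0, from 0.35 to 1.87. Of 21 genes of endosome and vesicle traffic, 9 were positive, such as RAB5C, RAB10, CLTA and SNX1, and LMTK2 was negative (47.6% called).

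Of 21 cell cycle genes, 9 were positive (42.9%, against 7.23% of all genes and 12% of those with a symbol). Among them were AURKA (1.64), CDC20 (1.45), RRM2 (1.34) and AURKB (1.18), with mock means at T24 well below those at T4 (RRM2 2.67 and 0.49). Of 14 heat shock and unfolded protein response genes, 5 were positive (35.7%), with BAG3, a co-chaperone (1.62), and HSPA5, the chaperone BiP (1.62), first. Of 27 genes of macrophage maturation, 5 were positive, including ABCA1, a cholesterol exporter (1.56), PLIN2, a lipid droplet protein (2.44), and MSR1, a scavenger receptor (1.98), and CLEC7A, DCSTAMP and MLANA were negative (29.6% called). The interferon response had 3 of 29 positive (OASL, DHX58 and IRF4, 10.3%), and the immediate early factors had KLF6 positive and MYC negative of 16 (12.5%), both close to the 12% of genes with a symbol. There were 2 of 7 positive in MHC class II presentation (CD74 and RLA-DR-ALPHA, 28.6%). These lists were chosen with results of these data known, and genes within a list are not independent. Calls also depended on the level. Of the 7198 dimmest genes 0 were called positive and 4 negative, and of the 7198 brightest 1015 and 49. The shares over all genes and over genes with a symbol are not matched to the lists for level. The called members also fell with the scaling. After quantile normalization and with processed signals they numbered 9 and 2 of the actin list, 4 and 0 of the V-ATPase subunits, 4 and 0 of glycolysis, 2 and 0 of the lysosomal list, 8 and 0 of vesicle traffic, 8 and 1 of the cell cycle, 1 and 1 of the heat shock list 4 and 1 of macrophage maturation, 4 and 1 of coagulation, 2 and 0 of the antimicrobial list, 1 and 0 of prostaglandin synthesis, 1 and 0 of the interferon response, 1 and 0 of the immediate early factors and 0 and 0 of MHC class II presentation.

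**Figure D5:**
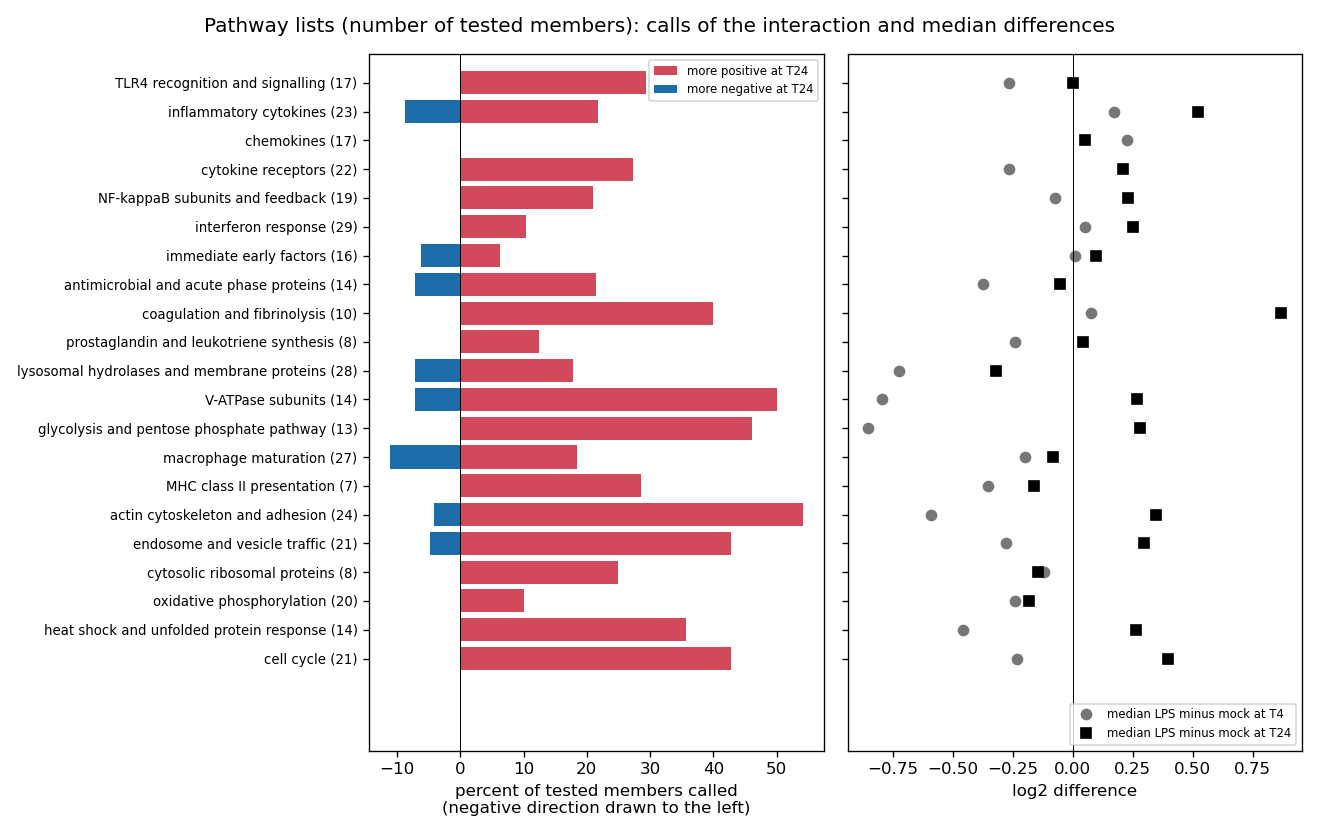
Left, the percent of tested members of each pathway list with a called interaction, positive to the right and negative to the left (7.23% of all genes were called). Right, the median LPS-minus-mock difference (log2) of the same members at T4 (circles) and T24 (squares); glycolysis (-0.85 and 0.28), V-ATPase subunits (-0.80 and 0.27) and the actin list (-0.59 and 0.35) lie left of 0 at T4 and right of 0 at T24.

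The calls at T4 behind these lists moved with the processing. The LPS T4 arrays had a narrower spread of signals: the 75th percentile lay 2.12, 2.04, 1.83 and 2.09 above the median in rabbits 1, 2, 4 and 5, against 2.23, 2.28, 2.12 and 2.20 in mock T4, 2.27, 2.36, 2.33 and 2.33 in mock T24 and 2.26, 2.33, 2.22 and 2.44 in LPS T24. LPS T4 was below mock T4 in all 4 rabbits. Genes were split by mean level into 4 sets of 7198, and the median difference at T4 was 0.13, 0.11, -0.07 and -0.11 from the dimmest to the brightest set. The part of this spread in the early differences was not tested. Genes called at T4 numbered 1550, and 12 after quantile normalization, 4 after normexp and quantile normalization and 0 with processed signals, where limma gave 5512 an unadjusted p under 0.05. Leaving out rabbit 1 gave 2227 and rabbit 5 gave 64. Limma called 0 without rabbit 2 (3916 at an unadjusted p under 0.05), 0 without rabbit 4 (3104) and 0 when only the LPS T4 array of rabbit 4 was left out (4385). Of the 989 genes lower at T4 only, 550 kept a called interaction after quantile normalization, 8 with processed signals, 780 without that 1 array, 164 without rabbit 5 and 3 without rabbit 4. Of the 102 genes lower at T24 only, 80 kept it after quantile normalization, 18 with processed signals, 90 without that array, 37 without rabbit 5 and 6 without rabbit 4.

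Genes that turned from lower to higher did so with modest sizes. Of the 43 genes called lower with LPS at T4 and higher at T24, 21 have a symbol, and their class median was -0.76 at T4 and 0.81 at T24. They included SFTPD, the lung collectin surfactant protein D (-1.21 and 1.36), FHOD1 (-1.48 and 0.77), MAP2K1, the kinase MEK1 of the MAP kinase cascade (-1.01 and 1.19), PLEK, pleckstrin of leukocytes and platelets (-0.81 and 1.35), DYNLT1, a dynein light chain (-0.71 and 1.17), PRDX6, an antioxidant enzyme (-0.64 and 1.10), TAGLN2, an actin-binding protein (-0.87 and 0.85), and PECAM1, an adhesion molecule of leukocytes and endothelium (-0.77 and 0.91). PRKCD, RAB5C, RBPJ, PARD6A, GOSR2, CASP9, RAB10, SEPTIN2, GNL3L, CLTA, CHMP2A, MLF2 and HYPK made up the rest. MAP2K1 levels were 4.81, 5.28, 5.01 and 4.68 in mock T4, 4.55, 4.62, 2.73 and 3.82 in LPS T4, 4.97, 4.98, 4.22 and 3.89 in mock T24 and 6.09, 5.85, 5.30 and 5.59 in LPS T24. The LPS T4 array of rabbit 4 was its lowest by far, and the groups did not overlap at either time. Of the 43 genes, 42 had a called interaction after quantile normalization, 12 with processed signals, all 43 without the LPS T4 array of rabbit 4, 41 without rabbit 5 and 7 without rabbit 4. These counts concern the interaction and not the turn: over all genes 3 were called lower at T4 after quantile normalization, 43 without rabbit 5, and 0 with processed signals, without that array or without rabbit 4.

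Beside the genes already named, the core called under all 4 scalings held DGAT2, which makes triglycerides (2.82), ATP8B1, a lipid flippase (2.62), DUSP6, a phosphatase that switches off ERK (1.78), SLC7A5, an amino acid transporter (1.54), SERPINB1, an inhibitor of neutrophil proteases (2.04), and ITGB5, an integrin chain (2.31), which was well above background on no LPS T4 array. DGAT2 had -0.48 at T4 and 2.33 at T24, and SLC7A5 had -0.24 and 1.30. In ATP8B1, DGAT2 and SLC7A5 the mock means were 4.61, 3.81 and 7.34 at T4 and 2.67, 2.59 and 4.43 at T24, and the LPS means at T24 were 4.53, 4.93 and 5.72. In the first pair the LPS mean at T24 was thus back near or above the level of T4, and in SLC7A5 it lay between.

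A list of 57 genes that the study itself named for LPS was followed too. Of the 42 measured here under their names, 16 had a positive and 9 a negative interaction. The study chose that list on these same samples, so its share of 59.5% is not independent evidence.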

How the data were processed

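PBMCs of 4 rabbits, mock-stimulated or given LPS for 4 or 24 h, were hybridised to 1-colour (Cy3) 60-mer arrays, read with Agilent Feature Extraction 10.7.3.1. The authors deposited scanner files with the median spot intensity of each array. Their deposited value table equals the log2 median signal less 1 constant per array, and it served as an alternative. Here control spots and outlier spots were left out, log2 median signals were centred on the median of the array, spots of a probe and then probes of a gene were averaged, and 115 genes with a missing value were dropped. The 28792 remaining genes were fitted with limma 3.58.1 in R 4.3.3, with the rabbit as a block, eBayes and Benjamini-Hochberg adjustment over all genes. A gene was called at an adjusted p under 0.05. The rabbit numbers in the labels mark the same animal, and deviations from group means correlated at a median of 0.26 within and -0.07 between rabbits. In simulated data with 200 changed genes among 28792, the fit recovered 53% of those at a log2 size of 1 and 92% at 2, with 6.45% of calls false. The simulated noise was independent between genes and arrays and lacked the narrower spread of the LPS T4 arrays. These rates therefore check the fit and do not give the error rate of the calls above. The number of arrays limits the precision, and the replicates are separate animals.

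Genes were named by rule: the 12 largest called interactions with a symbol in each direction, up to 4 members of each pathway list with the smallest interaction p, called or not, genes of the list the study named, and genes opposite at the 2 times. Other genes were named after their values were seen. The contrast, its lists (pathways, and markers of monocytes, B, T and NK cells, platelets, neutrophils and erythrocytes) and this rule were chosen with earlier results of these data known. Symbols came from the files, gene numbers and RefSeq accessions, and unmatched ones are not analysed here. Some single genes are not reported here. Alternatives covered scaling, dim probes, blocks, single probes, outlier spots and arrays left out.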

Additional observations from a re-analysis of the deposited data

Results flagged for a closer look

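The LPS-minus-mock difference itself differed between the time points in 2082 of 28792 genes by the interaction term of limma. Levels were also searched for groups in which 1 of the 4 arrays lay far from the rest, where its gap to the nearest other array was past the 95% critical value of Dixon's test. Of 496 sets of levels (124 named genes in 4 groups) 18 did, and chance flags about 1 in 20. The share of the range taken by the gap is given with the rabbit that stood apart. In mock T4 these were S100A8 (0.837, rabbit 1), TAB1 (0.843, rabbit 1), TLR4 (0.920, rabbit 5), OTULIN (0.836, rabbit 5), ANXA2 (0.847, rabbit 1), ATP6V0D1 (0.862, rabbit 1) and HYPK (0.835, rabbit 5). In LPS T4 these were IL36G (0.911, rabbit 5), TLR4 (0.864, rabbit 5), IFNGR1 (0.882, rabbit 4), ALOX5AP (0.968, rabbit 1) and CCL4 (0.881, rabbit 5). In LPS T24 these were PALLD (0.893, rabbit 5), IRAK3 (0.980, rabbit 1), HK1 (0.846, rabbit 4), HLA-DOA (0.872, rabbit 5), ACP5 (0.838, rabbit 2) and TAGLN2 (0.850, rabbit 4). TLR4 in rabbit 5 stood low both in mock T4 (3.15, with the other rabbits from 5.09 to 5.26) and in LPS T4 (2.47, against 3.77 to 3.97). IFNGR1 in LPS T4 was 1.31 in rabbit 4 and 2.83 to 3.04 in the others, and PALLD in LPS T24 was 0.87 in rabbit 5 and -0.23 to -0.11 in the others. None of the 24 sets of differences of differences of the largest interactions and none of the 16 sets of array measures was past that value.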

How the results depend on the processing

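The interaction was called in 2082 genes, LPS minus mock at T4 in 1550 and at T24 in 705. In that order the counts were 1367, 12 and 758 after quantile normalization, 72, 0 and 436 with processed signals, 1134, 4 and 719 after normexp and quantile normalization, and 3304, 2355 and 1323 over single probes. Without the replicate block they were 218, 2 and 197, and over all 24 arrays without the block 560, 295 and 352. A fit of 1 difference per rabbit gave 2789, 0 and 853, and the slide as a block 1411, 978 and 472. Requiring a log2 difference of at least 1 left 1229, 314 and 332. Leaving out arrays gave 0 to 2280 calls for the interaction, 0 to 2227 at T4 and 136 to 748 at T24, with the lowest counts without rabbit 2. At the counts of 0 for T4, limma gave 5512 genes with processed signals, 4306 with 1 difference per rabbit and 3916 without rabbit 2 an unadjusted p under 0.05. Dim probes, the trend and robust fit, kept outlier spots and all 24 arrays with the block stayed within 1.5 times. Values from the deposited table, within slides and without the LPS T4 array of rabbit 4 were added after seeing the data. Within a slide the groups come from different rabbits, so these values ignore the pairing and mix differences between slides and animals. F3 was -0.009213 on slide 2 and PECAM1 -0.2508 on slide 1, the reverse of their sign over all slides. In the paired values F3 was positive in all 4 rabbits, from 1.76 to 6.30. Of the 2082 called genes, 6, 7 and 57 were reversed within slides 1, 2 and 3. The cause of these shifts was not tested. Signal over background limits genes dim in a whole group, such as PALLD and IL23R.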
